A study of Capra hircus with 18 samples.

Results

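The genes described here are 6 genes that mark B cells or build and tune their antigen receptor: CD79A, CD79B, MS4A1, VPREB3, BLK and CD72. They were chosen by gene name, and all 6 were among the 430 genes listed in the deposited table that compares goats transported for 30 min with control goats. Only MS4A1 was among the 1247 genes of the corresponding table for 180 min. Both tables hold only genes that had passed an unadjusted test of the same contrast before deposit, so the members are in the table because they differed in these same goats. The differences between groups below are therefore descriptions, and their p-values are not independent evidence.

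RNA was measured by sequencing in the blood of 18 uncastrated male Spanish goats of 8 months, with 1 library per goat. The 7 control goats were not transported and were held in pens. The 4 goats of the 30 min group were transported over about 50 km and the 7 goats of the 180 min group over about 200 km. The labels do not give the day on which a goat was transported, so a difference between days cannot be told apart from the other differences between goats. The library size behind the FPKM values lay between 10443023 and 39473244 in the control goats, between 13992574 and 22855051 at 30 min and between 11290309 and 34125715 at 180 min. Whole blood holds many cell types, and in such bulk samples fewer B cells and less RNA per B cell cannot be told apart.

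B cells recognise antigen with a membrane immunoglobulin that carries no signalling tail of its own. CD79A and CD79B form the heterodimer that sits beside it and passes the signal on through tyrosine motifs, which kinases of the SRC family such as BLK phosphorylate. CD72 is a surface protein that dampens this signal. MS4A1 is the membrane protein CD20, the best known marker of mature B cells, and VPREB3 is related to the surrogate light chain of B cell precursors.

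All 6 genes had a lower mean normalized count at 30 min than in the control goats, and all 4 transported goats lay below the control median for each of the 6. The groups overlapped in every one of them, whereas 7 of the 430 listed genes (1.63%) were lower without overlap. MS4A1 and CD72 passed the exact permutation test at a p-value under 0.05, which is 2 of 6 members, or 33.3%. Among all 430 listed genes, 89 (20.7%) passed it as lower and 112 (26.0%) as higher, and 70.5% of the listed genes had a lower mean at 30 min. With only 6 members, the share is not far from that background. The median difference of the members was -0.77 on the log2 scale, against -0.92 over all listed genes. No listed gene passed the Benjamini-Hochberg adjusted exact permutation test at 0.05, whereas 201 (46.7%) passed without adjustment. With the same adjustment, limma passed 9 of these genes, edgeR 23 with the deposited size factors and 17 with TMM, and DESeq2 353. The paper found the listed genes with DESeq2, so the high count of that tool follows largely from how they were chosen. When each goat was centred on the median of the listed genes, which lay 0.61 lower on the log2 scale in the transported goats, 125 genes passed as higher and 16 as lower, and no member passed. That shift was computed over genes chosen for their difference, so the centring removes part of the difference itself. On that scale MS4A1 was 0.19 higher at 30 min, and the other members remained lower by 0.03 to 0.50.

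The signalling pair of the receptor is described first. CD79A (ENSCHIG00000013630) is listed at 52244875 to 52248153 on the minus strand of chromosome 18. Its coordinates, like those below, are those of the authors' tables, which do not name the genome build. The normalized counts of CD79A at 30 min were 3218 in goat 21, 3710 in goat 22, 4112 in goat 24 and 2621 in goat 27. In the control goats they ran from 2660 in goat 7 through a median of 5343 in goat 3 to 10284 in goat 8. The transported goats thus filled the lower part of the control range, and 1 of them lay below it. The transported goats averaged 3415 ± 644 (SD, n = 4), and the control goats averaged 5865 ± 2892 (SD, n = 7). The difference was -0.65 ± 0.31 (SE) on the scale of log2(normalized count + 1), with an exact two-sided permutation p of 0.133 (Benjamini-Hochberg adjusted over all 430 listed genes, 0.173). The number of goats allows no p below 0.00303 in this comparison.

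CD79B (ENSCHIG00000016944; chromosome 19, 47749691 to 47752572, minus strand) had normalized counts of 2625, 3068, 3754 and 2530 in goats 21, 22, 24 and 27. The control goats lay between 2608 in goat 7 and 11481 in goat 8, with a median of 6467. As with CD79A, goat 27 alone was below every control goat, and 4 control goats were above every transported goat. The means were 2994 ± 558 (SD, n = 4) and 6309 ± 3596 (SD, n = 7), and the difference was -0.88 ± 0.35 (SE) on the log2 scale (exact permutation p = 0.0970, adjusted 0.142). Leaving out 1 goat at a time gave differences from -1.05 without control goat 7, the only case that passed (exact permutation p = 0.0429), to -0.70 without control goat 8 (p = 0.133), and the highest p was 0.183, without goat 27.

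The surface markers MS4A1 and CD72 were the members that fell past the threshold. MS4A1 (ENSCHIG00000014503; chromosome 15, 232217 to 243231, minus strand) had normalized counts of 3133, 2767, 3573 and 2873 in goats 21, 22, 24 and 27. The control goats lay between 3169 in goat 7 and 5011 in goat 8, with a median of 4242. Goat 24 was the only transported goat inside the control range. The means were 3086 ± 359 (SD, n = 4) and 4177 ± 711 (SD, n = 7), the narrowest relative spread of any member in both groups. The difference was -0.43 ± 0.13 (SE) on the log2 scale (exact permutation p = 0.0182, adjusted 0.0814). In limma the same difference had a p of 0.0868, and without goat 22 it was -0.37 (exact permutation p = 0.05), so this call depends on the test and on that goat.

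CD72 (ENSCHIG00000026462; chromosome 8, 59614412 to 59622341, minus strand) had normalized counts of 77.2, 185, 134 and 122 in goats 21, 22, 24 and 27. The control goats lay between 128 in goat 7 and 338 in goat 1, with a median of 218. Goats 21 and 27 were below all control goats, and 6 of the 7 control goats were above all transported goats. The means were 129 ± 44.1 (SD, n = 4) and 231 ± 69.5 (SD, n = 7), and the difference was -0.84 ± 0.31 (SE) on the log2 scale (exact permutation p = 0.0212, adjusted 0.0814). The p-value was 0.075 without goat 21 and 0.05 without goat 27 (exact permutation), with differences of -0.61 and -0.83.

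BLK, the kinase, and VPREB3 did not pass the test either. BLK (ENSCHIG00000023279; chromosome 8, 7682786 to 7735792, minus strand) had normalized counts of 371, 320, 559 and 506 in goats 21, 22, 24 and 27. In the controls it ran from 365 in goat 6 through a median of 791 to 1500 in goat 8. The order of the transported goats differed from that of CD79A, since goat 27 was the lowest for CD79A and second highest of the transported goats for BLK. The means were 439 ± 112 (SD, n = 4) and 777 ± 401 (SD, n = 7), and the difference was -0.70 ± 0.34 (SE) on the log2 scale (exact permutation p = 0.133, adjusted 0.173).

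VPREB3 (ENSCHIG00000017114; chromosome 17, 140175 to 141234, plus strand) had normalized counts of 164, 151, 63.1 and 41.8 in goats 21, 22, 24 and 27. The control goats ran from 81.2 in goat 6 through a median of 189 to 492 in goat 8. It had the largest mean difference of the members and the largest error, -1.11 ± 0.60 (SE) on the log2 scale (means 105 ± 61.6, SD, n = 4, and 235 ± 152, SD, n = 7), with an exact permutation p of 0.0939 (adjusted 0.139). The lowest value rested on 38 reads. At the mean reads of the transported goats, counting error alone gives a coefficient of variation of 9.19%, and the goats varied by 58.7%. For CD79A in the control goats the same values were 1.29% and 49.3%.

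**Figure D1:**
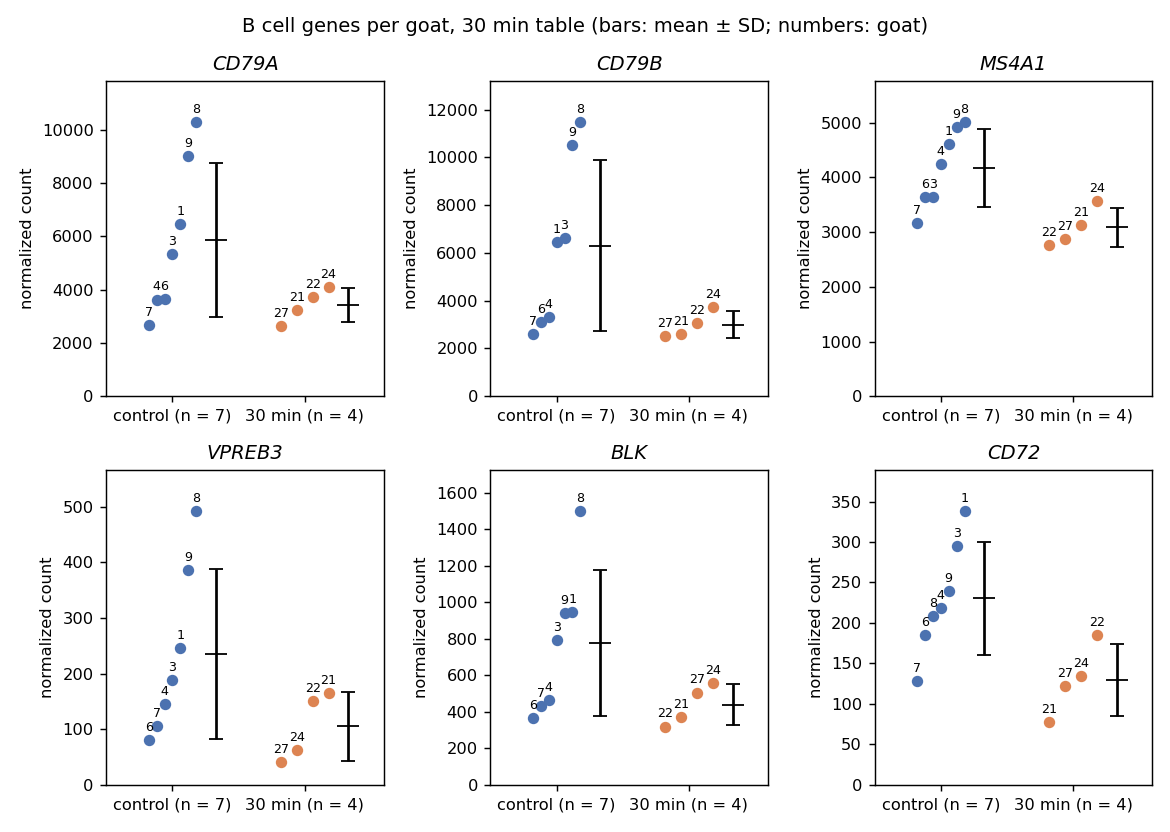
Normalized counts (linear axes from 0) of the 6 members in each control goat (blue, n = 7) and each goat transported for 30 min (orange, n = 4), with goat numbers above the points and the mean ± SD beside them. All 4 transported goats sit below the control median in each panel, and in 5 of the 6 panels control goat 8 is the highest point.

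Compared per length, the members fell into a few levels. The median FPKM over the 11 goats of the 30 min table was 302 for CD79A and 263 for CD79B. These neighbours were not ordered alike in all goats, as CD79A was above CD79B in 7 of 11. MS4A1 followed with 33.2 and VPREB3 with 22.6, and MS4A1 was the higher in 9 of 11 goats. CD72 (9.26) and BLK (7.71) were the lowest, with CD72 above BLK in 5 of 11. FPKM depends on the length that the table lists for a gene. That length is a multiple of 3 in 65.1% of the 404 protein-coding genes of the table, as it would be for a coding sequence without untranslated regions. It is such a multiple for CD79A (672 bases), CD79B (666), VPREB3 (366) and BLK (3555), but not for MS4A1 (5885) or CD72 (1091), so the steps between genes may be partly those of the annotation, which was not tested.

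The 2 chains of the receptor heterodimer had nearly equal FPKM. The ratio of CD79A to CD79B was 1.21, 1.20, 1.09 and 1.03 in goats 21, 22, 24 and 27, and it ran from 0.80 in goat 3 through a median of 0.99 to 1.17 in goat 6 in the controls. The mean ratio was 1.13 ± 0.0904 (SD, n = 4) against 0.97 ± 0.132 (SD, n = 7), and the ranges overlapped. Of the 15 ratios between members, this one had the smallest exact permutation p for a change at 30 min (0.0576, before any adjustment over the 15), with a log2 difference in normalized counts of 0.23 ± 0.0943 (SE).

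No member passed the test of whether its response differed from the rest. Each member was set against the mean log2 value of the other 5. MS4A1 differed from the others by 0.41 ± 0.23 (SE) on the log2 scale (exact permutation p = 0.164), and VPREB3 differed from them by -0.42 ± 0.55 (p = 0.376). The other 4 lay between -0.13 and 0.14, with exact permutation p-values between 0.230 and 0.788. With errors of 0.0981 to 0.55, unequal changes of the members were not detected here, which does not show that they changed alike.

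The levels of most members varied together from one control goat to the next. Goats 8 and 9 were the highest for CD79A, CD79B, MS4A1 and VPREB3. These 2 of 7 goats held 47.0% of the summed control counts of CD79A, 49.9% of CD79B, 34.0% of MS4A1, 53.4% of VPREB3, 44.9% of BLK and 27.8% of CD72. BLK was highest in goats 8 and 1, with goat 9 next, and CD72 was highest in goats 1 and 3. Control goats 4, 6 and 7 were not above the control median for any member, and goat 7 was as low as the transported goats for CD79A and CD79B.

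Over the 7 control goats, all 15 pairs of members had a positive Pearson r of log2(normalized count + 1), with a median of 0.86. The highest r was 0.98, between CD79A and CD79B (Spearman rho 0.93; exact permutation p = 0.000794 and 0.00675). VPREB3 and BLK followed with 0.96 (rho 0.96; exact permutation p = 0.000794 and 0.00278). Of the 15 pairs, 9 (60.0%) had an exact p under 0.05 with Pearson's r, and 10 with Spearman's rho. Among all 91806 pairs of listed genes, 8.93% did so with a positive r and 7.43% with a positive rho. Among the 33153 pairs whose genes both averaged 50 normalized counts or more in the controls, 14.3% did so with Pearson's r, and the median r was 0.15. After Benjamini-Hochberg adjustment over all pairs, no pair of listed genes passed 0.05 in these 7 goats, and the smallest adjusted p was 0.184.

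Over all 7 control goats the pairs with CD72 had a lower r than the pairs without it, and this split was not tested. The 10 pairs without CD72 had an r between 0.77 and 0.98, and 9 of them passed the exact test, MS4A1 with BLK being the other one (r = 0.77, exact permutation p = 0.0524). The 5 pairs with CD72 had an r between 0.46 and 0.57 and exact permutation p-values between 0.189 and 0.305. Leaving out, for each pair, the 2 goats farthest from the median of its first gene gave an r between 0.56 and 0.98 for the pairs without CD72. For the pairs with CD72 it gave between -0.10 and 0.81, so the relations with CD72 moved widely with the goats left out. When 1 control goat at a time was left out, 7 to 10 of the 15 pairs passed the exact test, not necessarily the same pairs. The lowest r of the 15 pairs was then 0.08 without goat 7 and 0.65 without goat 8. The 4 goats transported for 30 min are too few for a test. Among them 8 of the 15 pairs had a positive r, from -0.88 for VPREB3 with BLK to 0.91 for CD79A with CD79B.

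**Figure D2:**
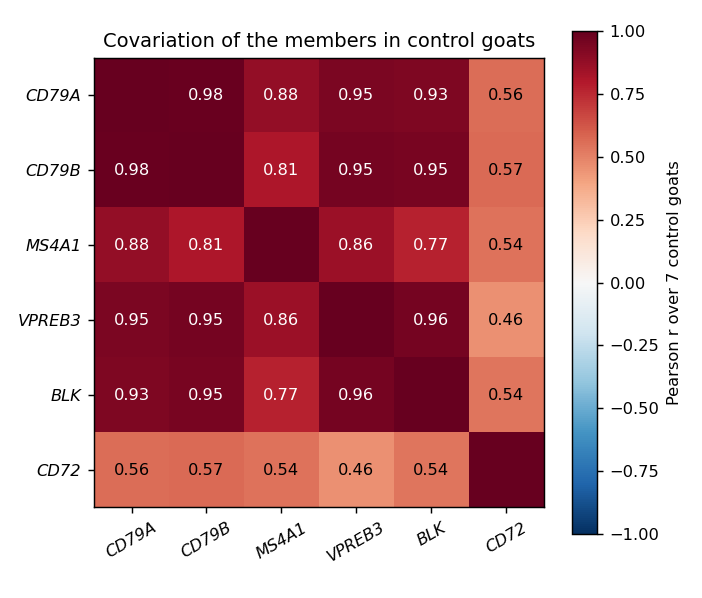
Pearson r of log2(normalized count + 1) over the 7 control goats for each pair of the 6 members (colour scale from -1 to 1, values printed in the cells). The pairs among CD79A, CD79B, MS4A1, VPREB3 and BLK have values from 0.77 to 0.98, and the row of CD72 lies between 0.46 and 0.57.

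The other listed genes were ranked by their likeness to the members. Likeness was taken as the Pearson r with the mean log2 value of the members over 11 goats, both as deviations from the group means, among 192 named genes that averaged 50 normalized counts or more. The 5 highest were BATF (0.98), a transcription factor of lymphocytes, FAM212A (0.98), RPL36 (0.96), a protein of the large ribosomal subunit, DPH7 (0.96), an enzyme of diphthamide synthesis, and HRAS (0.96), a small GTPase. The normalized count of RPL36 ran from 1272 in control goat 7 through a median of 4683 to 18050 in control goat 8, a wider range than that of any member. At 30 min it was 3727, 2775, 2575 and 1778 in goats 21, 22, 24 and 27 (difference -0.76 ± 0.58, SE, exact permutation p = 0.336). RPL36 put the 7 control goats in the same order as CD79A.

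**Figure D3:**
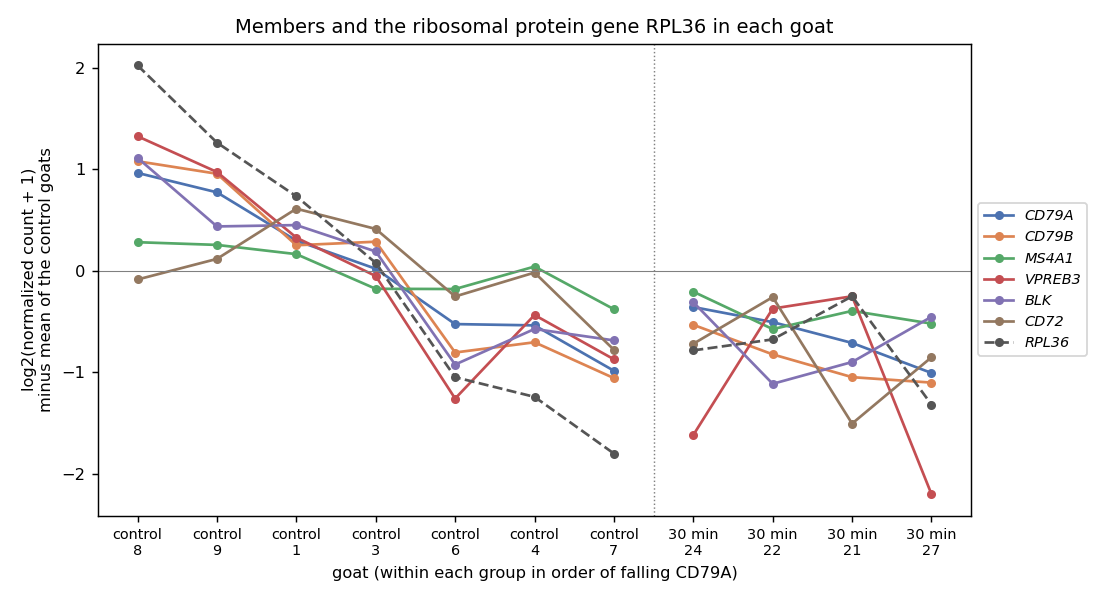
Log2(normalized count + 1) minus the mean of the control goats for the 6 members (solid lines) and RPL36 (dashed line), with goats ordered within each group by falling CD79A. In the control goats CD79A, CD79B, VPREB3, BLK and RPL36 are higher in goats 8, 9 and 1 than in goats 6, 4 and 7, with VPREB3 and BLK lowest in goat 6, MS4A1 spans a narrower range, and CD72 peaks in goat 1.

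The likeness to the members also went with the length listed for a gene. Over the 7 control goats, the median r with the mean of the members was 0.88 for 31 genes listed with under 500 bases, 0.72 for 57 genes of 500 to 1000 bases, 0.34 for 68 genes of 1000 to 2000 bases, 0.42 for 53 genes of 2000 to 4000 bases and -0.04 for 38 genes of 4000 bases or more. The spread within a class was wide, from -0.90 to 0.98 among genes under 500 bases and from -0.82 to 0.98 among those of 500 to 1000 bases. CD79A, CD79B and VPREB3 belong to the short genes, whereas BLK (3555 bases) and MS4A1 (5885 bases) had an r of 0.95 and 0.85 with the mean of the other members. Over the same 7 goats the r of the members with the log2 library size lay between -0.50 and -0.19. The part of gene length, ribosomal protein RNA and library size in the covariation and in the 30 min difference was not tested.

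**Figure D4:**
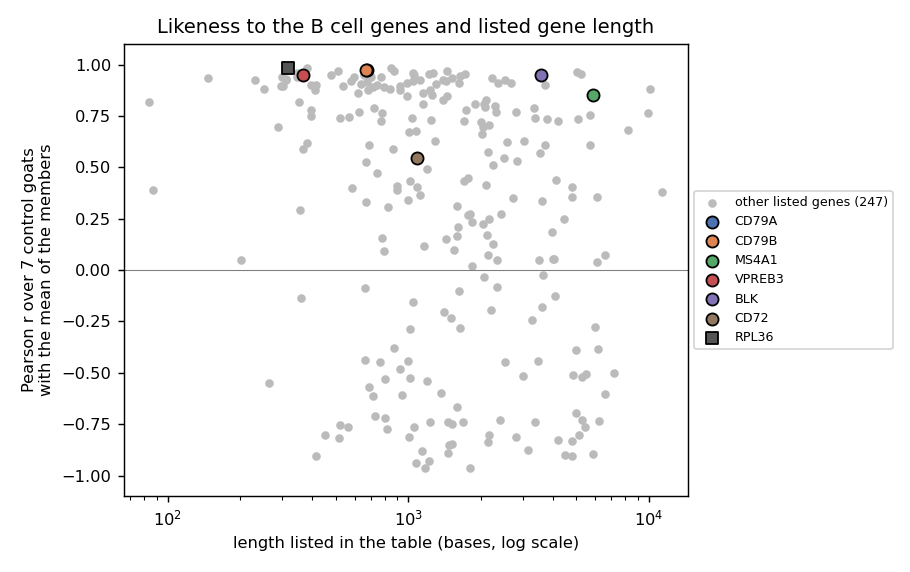
Pearson r over the 7 control goats with the mean of the members (for a member, with the mean of the other 5) against the length listed for the gene, on a log axis, for the 6 members, RPL36 and the other listed genes that averaged 50 normalized counts or more. Of the genes under 500 bases 67.7% have an r above 0.7, and of those of 4000 bases or more 18.4%, with values near -0.90 in both classes, and BLK and MS4A1 lie high among the long genes; the points of CD79A and CD79B coincide.

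Beyond the members, the B cell list of 37 genes had no other gene in the 30 min table, so PAX5 and the remaining markers give no value there. From a list of 69 genes of B cell receptor signalling, 8 were listed, 4 of them members. The other 4 did not move as one. NFKBIA, the inhibitor of NF-kappaB, rose from 754 ± 151 (SD, n = 7) to 2445 ± 741 (SD, n = 4), or by 1.68 ± 0.25 (SE) on the log2 scale (exact permutation p = 0.00303, the smallest this design allows). FOS and JUN, which form the AP-1 transcription factor, rose by 1.34 ± 0.42 (exact permutation p = 0.00303) and 0.66 ± 0.25 (p = 0.0303). HRAS differed by -0.98 ± 0.43 (exact permutation p = 0.112). These 4 genes are expressed in many blood cells. Of 11 plasma cell genes only PRDM1, the regulator of plasma cell fate that other lymphocytes also use, was listed, and it rose by 0.64 ± 0.22 (exact permutation p = 0.0121).

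Markers of other blood cells moved with the 30 min group. The neutrophil genes PTX3 and VNN1 rose. PTX3, a secreted pattern recognition protein, ran from 57.6 to 1049 normalized counts in the control goats and from 2213 to 3934 in the transported goats, without overlap. It rose by 3.82 ± 0.62 (SE) on the log2 scale (exact permutation p = 0.00606), and VNN1, a pantetheinase, rose by 1.24 ± 0.42 (exact permutation p = 0.00909). Of 16 NK cell genes 1 was listed, NCR3, which fell by 0.80 on the log2 scale (exact permutation p = 0.0485), and none of the 24 T cell, 11 monocyte, 10 eosinophil and basophil, 10 platelet or 13 red cell genes was listed. TXNIP, a regulator of thioredoxin, varied against the members, with a likeness of -0.92 over the 11 goats. The part of the neutrophil genes in the lower values of the members was not tested.

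MS4A1 could be followed to 180 min. With the size factors of the 180 min table, which the authors computed separately, its normalized counts in the 7 transported goats ran from 1635 in goat 15 through a median of 3339 to 4769 in goat 17. The control goats ran from 3759 to 5196 on that scale. All 7 transported goats lay below the control median, and 5 lay below every control goat. The means were 3261 ± 1046 (SD, n = 7) and 4632 ± 636 (SD, n = 7), and MS4A1 fell by 0.57 ± 0.21 (SE) on the log2 scale. The exact permutation p was 0.0122 (adjusted over all 1247 listed genes, 0.0390), and 321 listed genes (25.7%) passed the unadjusted test as lower and 477 (38.3%) as higher, 64.0% in all. Centred on the median of the listed genes, which lay 0.26 higher in these transported goats, 272 genes passed as higher and 424 as lower, and MS4A1 differed by -0.83. In edgeR with the deposited size factors the p of MS4A1 was 0.0520.

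The 30 min and 180 min groups were compared directly on counts scaled to a common library size, since the size factors of the tables differ. The difference of 180 min from 30 min was -0.14 ± 0.24 (SE) on the log2 scale (exact permutation p = 0.697), and without goat 15, the lowest of all, it was 0.03. On this scale both transported groups differed from the same 7 control goats, by -0.38 ± 0.13 at 30 min (exact permutation p = 0.0364) and by -0.52 ± 0.24 at 180 min (p = 0.0460). The mean FPKM was 37.6 ± 6.45 (SD, n = 7) in the controls, 28.8 ± 3.60 (SD, n = 4) at 30 min and 27.7 ± 10.1 (SD, n = 7) at 180 min. The spread was widest at 180 min, where goats 15 and 16 were below all other goats and goats 11, 13 and 17 were inside the control range of FPKM.

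**Figure D5:**
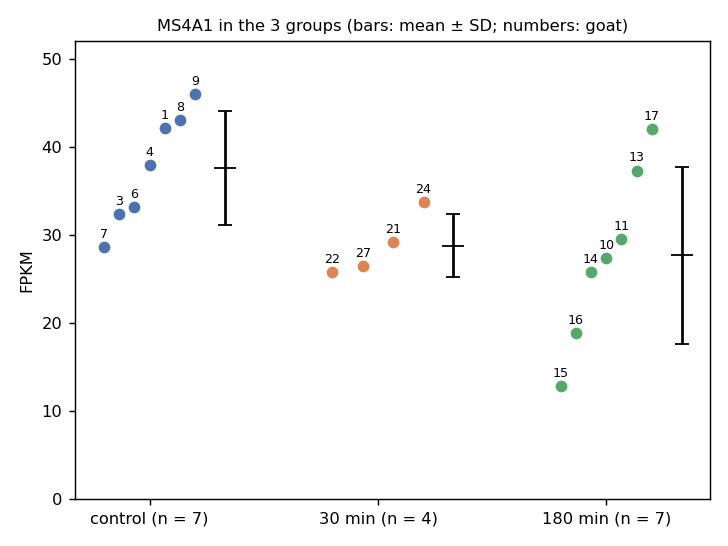
FPKM of MS4A1 (linear axis from 0) in each goat of the control (n = 7), 30 min (n = 4) and 180 min (n = 7) groups, with goat numbers above the points and the mean ± SD beside them. Goats 15 and 16 of the 180 min group are the lowest of all 18, and goats 11, 13 and 17 lie within the control range.

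The B cell list at 180 min held CD180 and POU2F2 beside MS4A1. CD180, a Toll-like receptor homologue of B cells, fell from 927 ± 238 to 554 ± 239 (SD, n = 7 each), or by 0.90 ± 0.40 (SE) on the log2 scale (exact permutation p = 0.0152). POU2F2, the transcription factor OCT2, fell from 498 ± 180 to 327 ± 109 (SD, n = 7 each), or by 0.58 ± 0.26 (exact permutation p = 0.0460). Of the receptor signalling list, SYK, the kinase that binds the phosphorylated receptor, rose by 0.56 on the log2 scale, while FOS (0.71, exact permutation p = 0.288) and VAV2 (-0.64, p = 0.0810) did not pass. PRDM1 rose by 0.84 (exact permutation p = 0.0315).

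Markers of other blood cells also differed at 180 min, in both directions. Of 24 T cell genes 7 were listed, all with a lower mean and 6 of them past the exact test, and their summed normalized count ran from 8663 to 16912 in the control goats and from 4583 to 9784 in the transported goats. Of 20 neutrophil genes 8 were listed and all 8 rose, with sums of 18893 to 79197 and 63205 to 191608. All 3 listed monocyte genes rose, as did NKG7 of the NK cell list (by 0.88). Of the platelet list 2 were listed, both higher and 1 past the test, and none of the red cell or the eosinophil and basophil genes was listed. The part of these cell types in the lower MS4A1 was not tested.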

How the data were processed

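Blood RNA of 18 goats was collected in PAXgene tubes, depleted of globin mRNA and sequenced as paired-end libraries. The authors cleaned reads with fastp and mapped them with HISAT2. The genome build and the counting tool are not given in the sources used here. The deposited raw counts are the reads the authors counted per gene. The deposited normalized counts are a signal scale, the counts divided by a size factor of each goat, computed for each comparison separately (0.53 to 2.09 in the 30 min table). The paper names both TMM factors of edgeR and DESeq2, and the labels do not say which tool gave these factors. The deposited FPKM divide the counts by gene length and library size. The deposited p-values were used only to test which genes the tables list, and all 430 and 1247 rows had one under 0.05. The authors' fold changes and adjusted p-values were not used.

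Goats were grouped by their labels, with each goat as 1 replicate. Differences of mean log2(normalized count + 1) were compared by a two-sided exact permutation test, which used each of the 330 possible splits of the goats for 30 min and each of the 3432 for 180 min. Correlations were tested over all 5040 orders of the control goats. Benjamini-Hochberg adjustment covered all listed genes or all listed pairs. An exact p-value is the share of these splits or orders with an absolute difference or correlation at least as large as the observed one. It refers to these goats only. Alternatives were pseudocounts of 0.1 and 10, a mean normalized count of at least 10, library size scaling, median centring, Mann-Whitney tests, leaving out each goat, limma 3.58.1, edgeR 4.0.16 and DESeq2 1.42.0 (R 4.3.3). Permutations ran in Python 3.11.15 (scipy 1.17.1, pandas 2.3.3, numpy 2.4.6) and plots in matplotlib 3.10.9. The scripts were tested on simulated data.

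Within a group, the share of genes with the same count in 2 goats was at most 3.56%, so no library was a copy of another of its group. Libraries of different groups were not compared in this way. All named members, all listed genes of the B cell, plasma cell and receptor signalling lists, and the 5 genes most like the members are named, with TXNIP and the genes of other cell lists added for their values. The members and lists were chosen with earlier results of these data known. The comparisons by gene length, with pairs of at least 50 counts, and the left-out goats for MS4A1 between 30 and 180 min were chosen after seeing the data. Some genes of these lists are not reported here.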

Additional observations from a re-analysis of the deposited data

How the results depend on the processing

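No paired analysis was possible because the goats of the 3 groups carry different numbers. The tables hold only genes called in these goats, so library-wide scaling and dispersions could not be estimated from unchanged genes, and 4 transported goats at 30 min limit every difference given there. On simple changes of scale (pseudocounts of 0.1 and 10, library size) the 6 members kept their direction. Median centring gave 0.19 for MS4A1 and -0.22 for CD72 on the log2 scale at 30 min, with no member and 16 lower listed genes passing, and 272 higher listed genes at 180 min.

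The models gave other calls on the same counts. The paper took its listed genes from DESeq2, so a second DESeq2 run was bound to pass most of them. None of these calls is independent evidence for the members. The cause of the other differences between the models was not tested. In limma, MS4A1 (-0.43) did not pass and 1 member did. In edgeR with the deposited size factors CD79A (-0.78), CD79B (-1.08), VPREB3 (-1.15) and BLK (-0.82) passed as well, giving 6 members and 304 listed genes, 193 of them lower. DESeq2 gave -0.78, -1.08, -1.16 and -0.82 for these genes, with 6 members, 391 listed genes and 268 lower. In edgeR with TMM CD79B passed (-0.84) and MS4A1 did not (-0.31). At 180 min MS4A1 was -0.51 in edgeR with the deposited size factors, where 0 members passed (p = 0.0520; in the exact permutation test and DESeq2 it passed), and DESeq2 passed 1201 listed genes, 719 higher and 482 lower.

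Leaving out 1 goat at a time at 30 min gave -1.05 to -0.70 for CD79B, -1.03 to -0.61 for CD72 and -0.50 to -0.37 for MS4A1, and 1 to 3 members passed. The listed genes that passed numbered 106 to 210, of which 59 to 107 were higher and 40 to 104 lower. The lowest totals were 106 without goat 24 and 111 without goat 21. Against the other members BLK ranged from -0.12 to 0.31 (-0.01 without goat 24, -0.12 without goat 27) and CD72 from -0.26 to 0.17 (0.17 without goat 21). VPREB3 against the other members ranged from -0.78 without goat 21 to -0.08 without goat 27, so its size rested on single goats. MS4A1 at 180 min against 30 min ranged from -0.26 to 0.029, the last without goat 15. The number of pairs passing in the control goats was 6 to 10 under all alternatives run.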
